A study of Homo sapiens with 6 samples.

Results

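OAS1, OAS2 and TRIM22 are 3 interferon-induced genes, and they were followed here through every transcript row that carries their names in the 2 RNA tables of a p63 study in human cervical cancer cell lines. They are 3 of 10661 genes named in these tables, with 3 of 15189 transcript rows in the ME-180 table and 6 of 16600 in the SiHa table. The 4 RNA libraries were ME-180 cells labelled p63 knockdown (table column shp63) and their control (column plko_1, the name of a common short hairpin vector), and SiHa cells with p63 overexpression and their vector control. ME-180 is a squamous carcinoma line of the cervix with a high level of TP63, and SiHa is a cervical carcinoma line with a low one. Each group is 1 library of 1 line, and the labels do not say whether the cells were a pool or a clone, or which p63 isoform was expressed. Without replicates, each difference below is one between 2 libraries, with no p-value of its own, and its 95% interval covers counting error only.

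Interferons are secreted proteins that bind receptors on the cell surface and, through Janus kinases, STAT factors and interferon regulatory factors, switch on a large set of antiviral genes. OAS1 and OAS2 encode oligoadenylate synthetases, enzymes that sense double-stranded RNA and make short adenylate chains that act as an antiviral signal. TRIM22 encodes an E3 ubiquitin ligase of the tripartite motif family that restricts several viruses and is also known as a target of p53. p63, encoded by TP63, is the relative of p53 that maintains basal squamous epithelium. In the RefSeq annotation OAS1, OAS3 and OAS2 are direct neighbours on chromosome 12, and TRIM22 lies on chromosome 11 beside TRIM34, TRIM6 and TRIM5.

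Of the 3 members, OAS1 has an entry in the RefSeq promoter table used here (build GRCh38.p14), and OAS2 and TRIM22 have none. The 250 bases before the OAS1 start are shown because interferon acts on such genes through repeats of GAAA in the promoter, and the same window is shown for TRIM34, whose counts moved in the same direction as those of its neighbour TRIM22 in both lines. The OAS1 window is chr12:112906712-112906961 and the TRIM34 window, before the first of its 2 starts in the table, is chr11:5624751-5625000, both on the plus strand. Capitals mark matches on either strand to GAAANNGAA (the core of the interferon-stimulated response element), GAAANGAAA (the same repeat with 1 base between) or TTCNNNGAA (the gamma-activated site).

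OAS1: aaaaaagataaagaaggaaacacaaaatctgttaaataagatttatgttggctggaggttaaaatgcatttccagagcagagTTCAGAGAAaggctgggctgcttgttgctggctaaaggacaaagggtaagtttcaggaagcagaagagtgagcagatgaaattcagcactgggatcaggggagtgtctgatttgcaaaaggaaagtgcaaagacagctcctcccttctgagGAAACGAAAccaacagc

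TRIM34: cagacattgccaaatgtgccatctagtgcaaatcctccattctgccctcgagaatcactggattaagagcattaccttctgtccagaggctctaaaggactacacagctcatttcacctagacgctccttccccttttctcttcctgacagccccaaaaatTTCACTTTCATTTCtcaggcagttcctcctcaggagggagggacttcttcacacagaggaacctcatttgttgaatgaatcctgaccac

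The OAS1 window held GAAACGAAA from 17 to 9 bases before the start and TTCAGAGAA, which matches on both strands, from 168 to 160 bases before it, and it held no GAAANNGAA. The TRIM34 window held TTCACTTTC, the reverse complement of the response element core, from 89 to 81 bases before the start, overlapping TTTCATTTC from 84 to 76 bases before it, which matches GAAANGAAA on the other strand. The window before the second TRIM34 start held 0 matches to any of these motifs. Over the same 250 bases of all 35116 promoter windows in the table, 6.88% held GAAANNGAA, 6.57% TTCNNNGAA and 2.69% GAAANGAAA, the last of which was added after the OAS1 window had been read. Neither window held the p53 family decamer, the repeat unit that p53 and p63 bind, which 5.57% of all windows did. A match is a run of letters and not a site shown to be bound.

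The tables held 10046579 counts for the ME-180 library labelled knockdown and 10804272 for its control, and 13690639 for the SiHa overexpression library and 14207637 for its vector control. These are totals of rows, from which CPM (counts scaled to a total of 1000000 per library) were computed, and not full sequencing depths. The 5 TP63 transcript rows had 0 to 6 counts in the library labelled knockdown and 393 to 5619 in the ME-180 control, and 95 to 179 with overexpression and 0 to 8 with the vector in SiHa. The ME-180 library labelled knockdown stood apart: over the 13206 transcripts in both tables, Pearson's r of log2(CPM + 1) was 0.806 with its own control and 0.886 with the SiHa vector library, while the SiHa pair had r = 0.993. This is a description across transcripts, which are not replicates. Whether this library is of the same line as its control was not tested, so in every ME-180 difference below the hairpin and another origin of the cells cannot be told apart. The squamous markers fixed for the check of cell type (3 of 5 with a row) summed to 26.9 CPM in the library labelled knockdown and 68079.7 CPM in the ME-180 control. Their part in the ME-180 results was not tested, and with 1 library per group no result can be given without that library.

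By its labels, the ME-180 pair asks how RNA differs under a hairpin against p63. All 3 members were read in the control and had no read in the library labelled knockdown. OAS1 had 0 counts in the library labelled knockdown and 254 (23.5 CPM) in the control. With a floor of 3 counts put in place of the 0 it was 78.7-fold lower (lower 95% limit 63.6). OAS2 had 0 counts in the library labelled knockdown and 166 (15.4 CPM) in the control, 51.5-fold lower at that floor (lower 95% limit 41.4). TRIM22 had 0 counts in the library labelled knockdown and 186 (17.2 CPM) in the control, 57.7-fold lower at that floor (lower 95% limit 46.4). The floor is 0.299 CPM in the library labelled knockdown, where the upper 95% limit of a count of 0 is 0.367 CPM. The OAS genes and TRIM22 thus showed the same pattern in this line, and no contrast between them can be read from 3 zeros. On the scale of log2(CPM + 1) the differences were -4.62 for OAS1, -4.03 for OAS2 and -4.19 for TRIM22, at positions 166, 216 and 199 from the lowest of the 6783 genes that reached 1 CPM in one of the libraries.

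Differences of 2-fold or more were common in the ME-180 pair, while losses as large as those of the members were far fewer. Of the 6783 genes, 20.6% were lower by 2-fold or more in the library labelled knockdown and 28.2% were higher by that much, with a median log2 ratio of 0.28. Of 4418 genes with at least 100 counts in the control, 110 (2.49%) had 0 counts in the library labelled knockdown, and the 3 members are among these 110, at places 60, 75 and 83 by control count for OAS1, TRIM22 and OAS2. In the authors' deposited table, which rests on the same single libraries, the adjusted p was 3.52e-22 for OAS1, 2.39e-18 for OAS2 and 2.28e-19 for TRIM22, and 20.0% of its transcripts were lower at an adjusted p under 0.05.

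**Figure D1:**
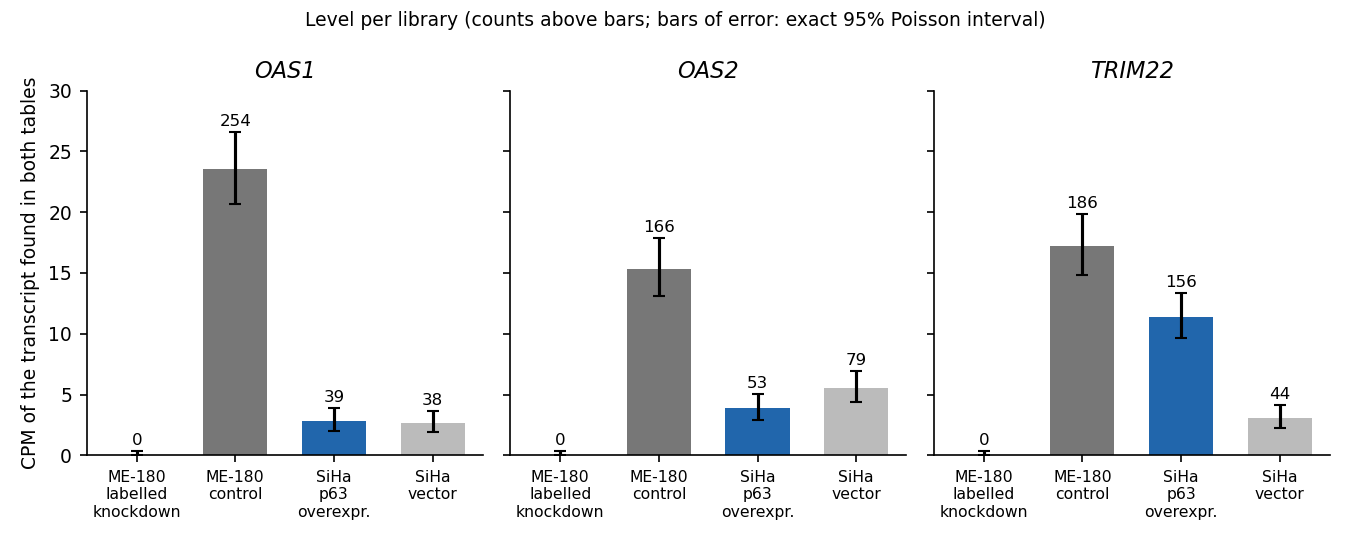
CPM of the transcript of each member that has a row in both tables, in the 4 libraries (bars, 1 library each; counts above the bars; error bars, exact 95% Poisson interval of the count). All 3 genes are at 0 counts in the ME-180 library labelled knockdown, and in SiHa the TRIM22 bar with overexpression (156 counts) lies above the vector bar (44 counts), while the OAS1 bars overlap in their intervals.

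The overexpression comparison asks the reverse in SiHa, a line with little p63, and there the members parted. TRIM22 was higher with p63 and the OAS genes were not. TRIM22 had 156 counts (11.4 CPM) in the overexpression library and 44 (3.10 CPM) with the vector, a ratio of 3.68 (95% interval 2.62 to 5.27). Its log2 ratio of 1.60 was the 10th highest of 6996 genes, of which 0.572% were higher by 2-fold or more and 0.743% lower. In the authors' deposited table its adjusted p was 0.0525, just short of 0.05, a threshold that 0.0904% of the SiHa transcripts passed as higher.

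OAS1 had 3 transcript rows in SiHa, which encode synthetases that differ at the C-terminus. NM_002534.2 had 66 counts with overexpression and 73 with the vector (ratio 0.938, interval 0.662 to 1.33). NM_016816.2 had 50 counts with overexpression and 44 with the vector (ratio 1.18, 0.771 to 1.81). NM_001032409.1, the row also found in ME-180, had 39 counts with overexpression and 38 with the vector (ratio 1.07, 0.664 to 1.71). All 3 intervals include 1 and none reaches 2, so a doubling of OAS1 lies outside the counting error of each row. Whether a read could be counted in more than 1 of these rows was not tested.

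OAS2 had 2 rows in SiHa with opposite signs. NM_001032731.1, which is also the ME-180 row, had 53 counts with overexpression and 79 with the vector (ratio 0.696, interval 0.482 to 0.999). NM_002535.2 had 69 counts with overexpression and 51 with the vector (ratio 1.40, 0.964 to 2.06). One interval ends just below 1 and the other starts just below it, so neither row separates the libraries clearly. The 2 rows together had a log2 ratio of -0.03. Neither OAS gene passed the 2-fold rule in SiHa, and the authors' deposited table gave an adjusted p of 1 to every OAS1 and OAS2 row.

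**Figure D2:**
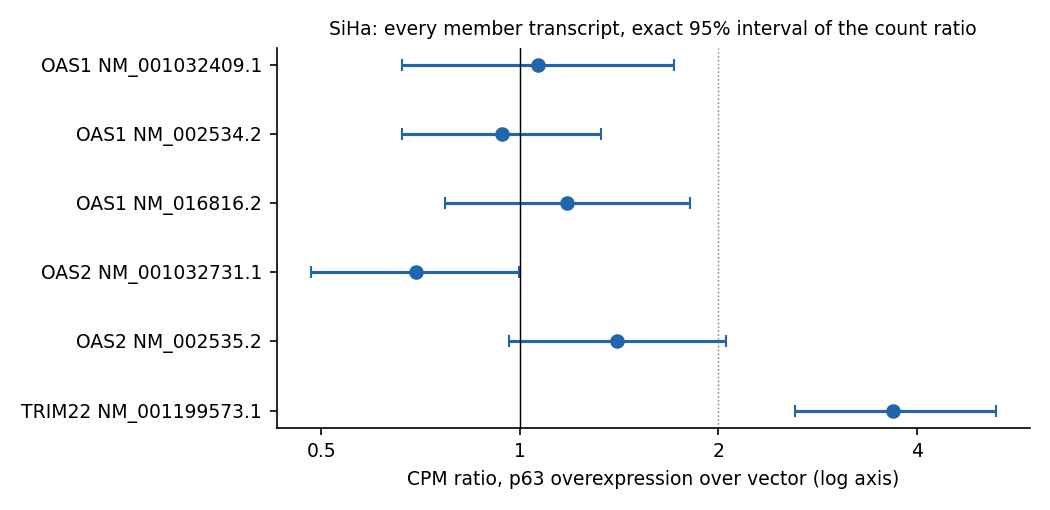
Ratio of CPM in the SiHa overexpression library over the vector library for each of the 6 member transcript rows (points; log axis; bars, exact 95% interval from counting error; dotted line, 2-fold). The TRIM22 interval, 2.62 to 5.27, lies to the right of 2, and the 3 OAS1 intervals include 1.

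The contrast between TRIM22 and the OAS genes was read within each library, where the ratio of 2 counts does not depend on the library total. These count ratios are not corrected for transcript length, so they are compared between libraries and not read as relative levels. TRIM22 had 2.36 reads for each read of OAS1 NM_002534.2 with overexpression (1.76 to 3.20) and 0.603 with the vector (0.405 to 0.888). Against OAS2 NM_001032731.1 it had 2.94 with overexpression (2.14 to 4.10) and 0.557 with the vector (0.376 to 0.815). The ratio of TRIM22 to OAS1 was therefore 3.92 times as large with overexpression (interval 2.38 to 6.47) and that of TRIM22 to OAS2 5.28 times (3.17 to 8.82). With the other OAS2 row the second value was 2.62 (1.55 to 4.42), and with the other OAS1 rows the first was 3.12 and 3.45. All 5 OAS rows gave an interval above 1. In the ME-180 control TRIM22 had 0.732 reads per read of OAS1 NM_001032409.1 (0.603 to 0.888). That OAS1 row gave 4 with SiHa overexpression and 1.16 with the SiHa vector. Against OAS2 NM_001032731.1 the ME-180 control had 1.12 (0.904 to 1.39), and in the library labelled knockdown no ratio exists.

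**Figure D3:**
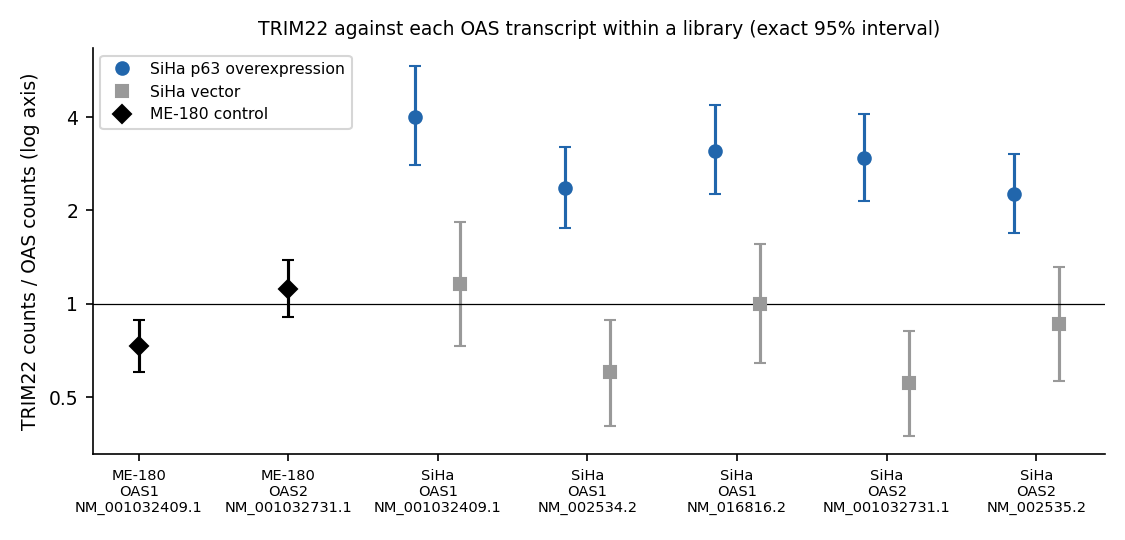
TRIM22 counts divided by the counts of each OAS transcript row within 1 library (log axis; bars, exact 95% interval from counting error). For each of the 5 SiHa rows the overexpression point lies above the vector point. The ME-180 control points are 0.732 for OAS1 NM_001032409.1 and 1.12 for OAS2 NM_001032731.1. The SiHa vector points of these rows are 1.16 and 0.557.

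Between the lines, the highest level of each member was in the ME-180 control. The 2 tables were counted and scaled separately and lack different genes, so the following levels are approximate. The OAS1 row common to both tables was 8.79 times as high in the ME-180 control as in the SiHa vector library (6.23 to 12.7), the OAS2 row 2.76 times (2.10 to 3.66) and the TRIM22 row 5.56 times (3.98 to 7.91). For OAS1 the order was ME-180 control (23.5 CPM), SiHa overexpression (2.85), SiHa vector (2.67) and ME-180 labelled knockdown (0), where the SiHa neighbours do not differ beyond counting error. For OAS2 it was ME-180 control (15.4 CPM), SiHa vector (5.56), SiHa overexpression (3.87) and labelled knockdown (0). The 2 SiHa intervals overlap, and the other OAS2 row had the opposite SiHa order, 5.04 CPM with overexpression and 3.59 with the vector. For TRIM22 it was ME-180 control (17.2 CPM), SiHa overexpression (11.4), SiHa vector (3.10) and labelled knockdown (0), with intervals that do not overlap between neighbours. The TRIM22 level in SiHa with p63 was 0.662 of that in the ME-180 control (0.532 to 0.823), against 0.121 for OAS1 (0.0842 to 0.170) and 0.252 for OAS2 (0.181 to 0.345). These OAS values depend on the row taken. OAS1 NM_002534.2, which has no ME-180 row, had 4.82 CPM with SiHa overexpression and 5.14 with the SiHa vector. NM_016816.2, also without an ME-180 row, had 3.65 CPM with SiHa overexpression and 3.10 with the SiHa vector.

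Like the OAS genes, TRIM22 was lower in the ME-180 library with less TP63, and unlike them it passed the 2-fold rule in the SiHa library with more. Of 5573 genes that reached 1 CPM in both lines, 14 (0.251%) passed the rule as lower in the ME-180 library labelled knockdown and as higher in SiHa with overexpression. These are 1.57% of the 893 lower in ME-180 and 60.9% of the 23 higher in SiHa. TRIM22 stood 5th by its SiHa ratio, after KRT14, TP63 itself, ARHGDIB and COL17A1 and before KRT5. With a pseudocount of 5 CPM the number was 8 and with 0.1 CPM 41, TRIM22 among them each time.

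The other OAS genes and the neighbours of TRIM22 were described from lists. OAS3, the synthetase gene between OAS1 and OAS2, has no row in either table used here. OASL, an OAS relative without synthetase activity, had 3 rows in ME-180 with 1 to 3 counts in the library labelled knockdown and 21 to 36 in the control. Its largest row, NM_003733.3, had 3 counts in the library labelled knockdown and 36 in the control, 11.2-fold lower (3.53 to 56.6). In SiHa its single row had 101 counts with overexpression and 120 with the vector (ratio 0.873, 0.664 to 1.15), so OASL followed OAS1 and OAS2 in both lines. TRIM34 had 4 counts in the library labelled knockdown and 80 in the control, 18.6-fold lower (6.99 to 69.9). In SiHa its NM_001003827.1 row had 29 counts with overexpression and 10 with the vector, a ratio of 3.01 (1.43 to 6.92) that falls short of the 2-fold rule (log2 ratio 0.87) because the added pseudocount shrinks low values. The readthrough transcript TRIM6-TRIM34, named here after its values were seen, had 37 counts with overexpression and 14 with the vector in SiHa, and whether its reads are also counted for TRIM34 was not tested. TRIM6 was 2.47-fold lower (1.98 to 3.09), with 112 counts in the library labelled knockdown and 297 in the control, and in SiHa all its rows had 7 to 9 counts with overexpression and 10 to 14 with the vector, under 1 CPM. TRIM3, farther away on the same list, had 90 counts in the library labelled knockdown and 82 in the control of ME-180 (ratio 1.18, 0.865 to 1.61), and 106 with overexpression and 100 with the vector in SiHa.

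Among 48 interferon-stimulated genes, which include the members, 18 had at least 1 CPM in an ME-180 library, and 13 of them were at least 2-fold lower and 1 higher in the library labelled knockdown, beside 20.6% and 28.2% of all genes. The median log2 ratio was -3.40, or -4.39 with zeros set to 3 counts, and that of all genes was 0.28. OAS1, OAS2 and TRIM22, chosen with earlier results of these data known, are among the 13 lower genes and in this median. TNFSF10, the death ligand TRAIL, had 0 counts in the library labelled knockdown and 1328 in the control. With 3 counts in place of the 0 it was 412-fold lower (lower 95% limit 334). SP100, a nuclear body protein, had 1 count in the library labelled knockdown and 478 in the control, a 444-fold difference with an interval of 79.4 to 17592. MX1, a dynamin-like restriction factor of influenza virus, had 2 counts in the library labelled knockdown and 236 in the control (log2 ratio -4.25). The list did not go down as a whole. IFI6, a mitochondrial protein and classical interferon-induced gene, had 177 counts in the library labelled knockdown and 186 in the control (ratio 1.02, 0.828 to 1.26), and HERC6, a ubiquitin ligase, 195 in the library labelled knockdown and 215 in the control (0.975, 0.799 to 1.19). IFI44L was the gene that was higher, with 24 counts in the library labelled knockdown and 5 in the control.

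In SiHa, TRIM22 was the 1 of 20 interferon-stimulated genes at or over 1 CPM that passed the 2-fold rule, and none was lower. Of all SiHa genes 0.572% were higher by that rule and 0.743% lower, shares that also stand beside the other SiHa lists. A SiHa list with 0 genes called is thus near the share of all genes, and is no result about that list. The median log2 ratio of the 20 was 0.07, and that of all genes was -0.05. SP110, a nuclear body protein related to SP100, came next with 78 counts under overexpression and 39 with the vector (ratio 2.08, 1.40 to 3.13, log2 ratio 0.84). GBP1, a guanylate-binding protein induced by interferon gamma, had 719 counts with overexpression and 498 with the vector (log2 ratio 0.57). IFIT2, which binds viral RNA, leaned the other way with 155 counts with overexpression and 259 with the vector (ratio 0.621, 0.506 to 0.761). IFIT1, IFIT3, SAMD9 and PARP9, all lower in the ME-180 library labelled knockdown, had SiHa ratios of 0.999, 0.912, 1.01 and 1.04. SP100, MX1 and TNFSF10, also lower there, had SiHa ratios of 1.42 (1.12 to 1.80), 1.36 (1.04 to 1.80) and 1.18 (1.05 to 1.33), short of 2-fold with intervals above 1. With a pseudocount of 0.1 CPM, 3 genes of the list passed the rule in SiHa.

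**Figure D4:**
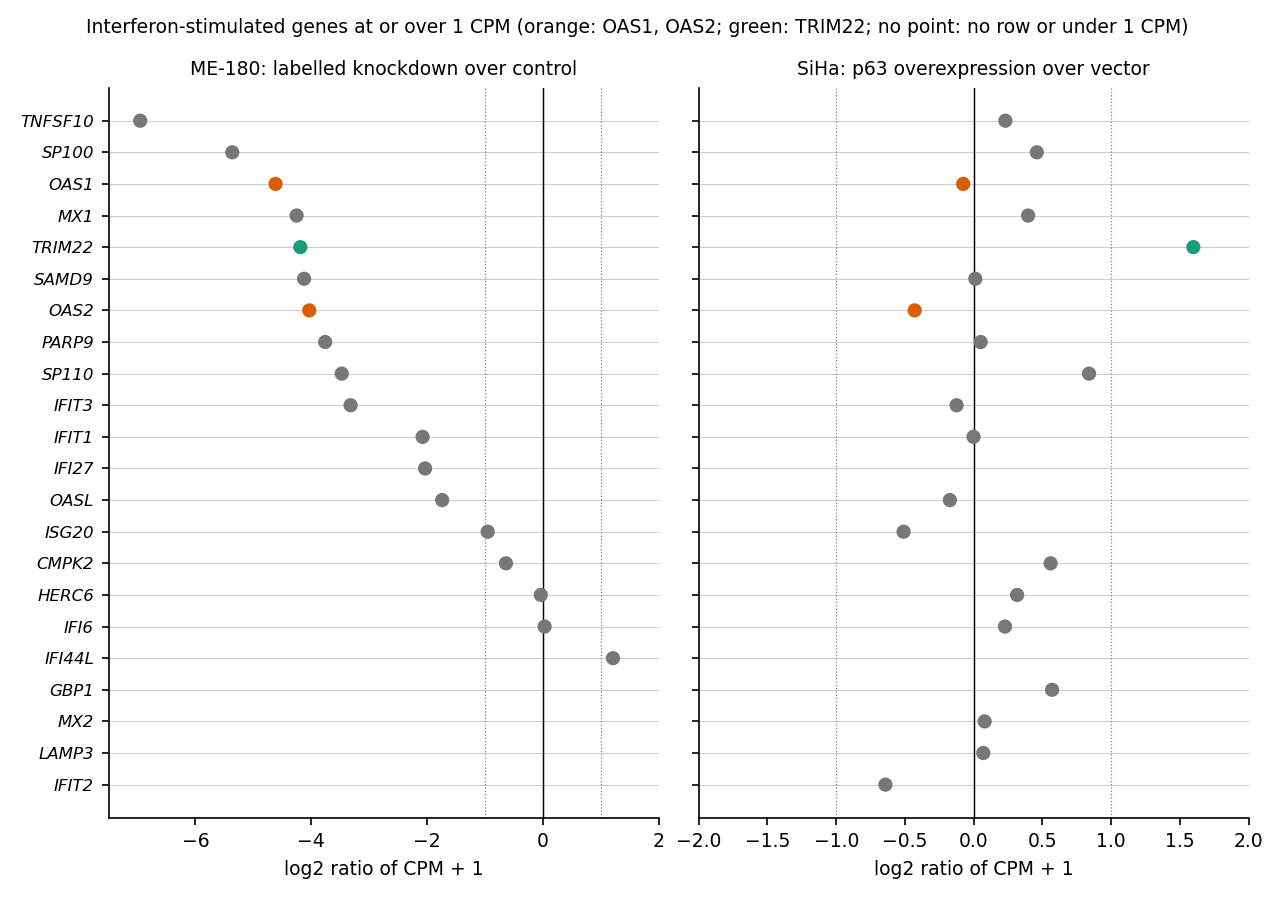
Log2 ratio of CPM + 1 for the interferon-stimulated genes with at least 1 CPM, in ME-180 (left, labelled knockdown over control) and SiHa (right, overexpression over vector; a narrower axis), with OAS1 and OAS2 in orange, TRIM22 in green and dotted lines at 2-fold. In ME-180 all 3 members lie at or below -4.03, and in SiHa TRIM22 lies at 1.60, to the right of all other genes of the list.

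Upstream of these genes, few ligands were read. IFNA1, an interferon alpha gene, had 0 counts in the ME-180 library labelled knockdown and 15 in the control, reads that a near-identical copy can share, and the other ligand with a row, IFNK, had 0 in the library labelled knockdown and 6 in the control. In SiHa the single ligand row, IFNB1, had 2 counts with overexpression and 0 with the vector. Of the receptors, IFNAR2, a chain of the type I interferon receptor, had 286 counts in the library labelled knockdown and 76 in the control (ratio 4.05, 3.13 to 5.28), the opposite direction to the members. Its partner IFNAR1 had 1619 counts in the library labelled knockdown and 1160 in the control (log2 ratio 0.58), and the interferon gamma receptor chain IFNGR1 1509 in the library labelled knockdown and 1740 in the control. In SiHa 0 of 4 receptor genes passed the rule, with IFNGR1 at 2062 counts with overexpression and 1598 with the vector (ratio 1.34, 1.25 to 1.43).

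The factors that carry the signal are thinly covered. STAT2 and IRF9, which act at the response element, have no row in either table and cannot be read as absent. Of 3 ME-180 genes of that list, 2 were lower. IRF5 had 1 count in the library labelled knockdown and 67 in the control (log2 ratio -2.71). IRF3, which answers viral RNA, had 446 counts in the library labelled knockdown and 588 in the control (ratio 0.816, 0.720 to 0.924). In SiHa 0 of 8 passed the rule. IRF1, an activator of interferon gamma targets, had 1177 counts with overexpression and 993 with the vector (ratio 1.23, 1.13 to 1.34), and IRF8 64 with overexpression and 123 with the vector (ratio 0.540, 0.393 to 0.736). The brakes of the response had 1 row at 1 CPM in ME-180, the phosphatase PTPN2 with 183 counts in the library labelled knockdown and 228 in the control, and 3 in SiHa, none past the rule.

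Of 6 nucleic acid sensor genes in ME-180, 3 were lower and 0 higher, beside 20.6% and 28.2% of all genes, shares that also stand beside the other ME-180 lists. IFI16, a DNA sensor, had 1 count in the library labelled knockdown and 1930 in the control, and MYD88, the adaptor of Toll-like receptors, 3 in the library labelled knockdown and 221 in the control. ADAR, which edits double-stranded RNA, had 1630 counts in the library labelled knockdown and 1023 in the control (ratio 1.71, 1.58 to 1.85), and EIF2AK2, the kinase PKR, 315 in the library labelled knockdown and 398 in the control. In SiHa 0 of 6 passed the rule, with IFI16 at 1653 counts with overexpression and 1364 with the vector (ratio 1.26, 1.17 to 1.35). Of 6 genes of class I antigen presentation, 4 were lower in ME-180, led by the trimming peptidase ERAP1, which had 140 counts in the library labelled knockdown and 1418 in the control. HLA-C, a gene with close paralogs, had 3539 in the library labelled knockdown and 4654 in the control. In SiHa 0 of 8 passed, with the immunoproteasome subunit PSMB10 at 3406 counts with overexpression and 2510 with the vector (ratio 1.41, 1.34 to 1.48). Of the other antiviral TRIM genes at 1 CPM, PML and TRIM26, neither passed the rule in either line.

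Patterns across the 4 libraries were compared by the distance of log2(CPM + 1) after subtraction of each gene's mean, over 4954 genes that reached 100 counts somewhere, as a description of 4 points. The genes most like TRIM22 were BIRC3, an inhibitor of apoptosis (distance 0.58), SP110 (0.79) and MX1 (0.85). Those most like OAS1 were MST1R, a receptor tyrosine kinase (0.26), SHE (0.36) and BIK, an apoptosis inducer (0.37). Those most like OAS2 were SHE (0.40), LMNA, a lamin (0.44), and RBMS3 (0.49). OAS2 was 8th in likeness to OAS1, with TRIM22 67th, and OAS1 was 6th in likeness to OAS2, with TRIM22 99th. From TRIM22, OAS1 was 33rd and OAS2 53rd. Each gene entered with its largest row per line, so OAS1 joined NM_001032409.1 in ME-180 to NM_002534.2 in SiHa. OAS2 entered with NM_001032731.1, whose SiHa direction is opposite to that of NM_002535.2. Distances with the other rows were not computed.

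Markers of other cells were read beside these results. In bulk RNA, fewer cells of a type and less RNA per cell cannot be told apart. Of 7 leukocyte markers, 6 had a row in ME-180 and summed to 9.26 CPM in the library labelled knockdown and 52.2 CPM in the control, and they did not move together. CD68, a lysosomal protein, made up most of the control's sum, with 3.78 CPM in the library labelled knockdown and 50.4 in the control. PTPRC, the pan-leukocyte antigen, had no row in either table, and CD3E had 0 counts in the library labelled knockdown and 2 in the control of ME-180. In SiHa 5 of the 7 leukocyte markers had a row and summed to 137.5 CPM with overexpression and 126.7 with the vector. Most of this was CD14, at 103 CPM with overexpression and 97.4 with the vector. Of 3 markers of plasmacytoid dendritic cells, the main interferon producers in blood, IL3RA had a row, with 0.199 CPM in the library labelled knockdown and 1.39 in the control of ME-180. Fibroblast markers with an ME-180 row, 3 of 5, summed to 68.6 CPM in the library labelled knockdown and 128.1 in the control. Members of that list went in opposite directions. In SiHa 4 of 5 had a row and summed to 21.7 CPM with overexpression and 27.5 with the vector. In ME-180 COL1A1 had 524 counts in the library labelled knockdown and 1373 in the control. COL3A1 had 164 in the library labelled knockdown and 9 in the control, 19.6-fold higher (10.1 to 43.6). The squamous markers with a SiHa row, 4 of 5 against 3 in ME-180, summed to 89.6 CPM with overexpression and 23.7 CPM with the vector. The simple epithelial keratins with an ME-180 row, 2 of 3, summed to 130.8 CPM in the library labelled knockdown and 2710 in the control. In SiHa all 3 had a row and summed to 4566 CPM with overexpression and 2513 with the vector. KRT19, which has no ME-180 row, had 794 CPM of this with overexpression and 275 with the vector. The part of these markers in the members' differences was not tested.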

How the data were processed

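RNA was measured in 4 libraries, 1 per group, grouped by their titles. RNA was total RNA taken up in TRIzol, per the labels' protocols. The submitters' processing notes name TopHat, Cufflinks, DESeq2 and the build hg19, without roles. The sources used here give neither the counter nor its strand setting nor how shared reads were handled. Deposited by the authors were whole-number counts per RefSeq transcript, with their own log2 fold changes and p-values from 1 library per group. Genes were matched by the table's names (spreadsheet dates through RefSeq identifiers), and 21 (ME-180) and 23 (SiHa) of 48 interferon-stimulated genes had a row.

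Counts were divided by the table's total and scaled to 1000000 (CPM). For each gene the transcript with the most CPM over its 2 libraries was taken. It was called at a 2-fold ratio of CPM + 1 where either library reached 1 CPM. Intervals are exact 95% (Poisson for counts, conditional binomial for ratios, conditional odds ratio for ratios of ratios; scipy 1.17.1) and, like the floor of 3 counts, cover counting error only. Alternatives used edgeR 4.0.16 and DESeq2 1.42.0 scaling, other pseudocounts, no floor and other transcript rows. Rules were tried on simulated counts with counting error only, where the changes put in were larger than 2-fold and in genes well above 1 CPM. Changes near these limits and differences between cultures were not simulated. Named genes were the members, the OAS and TRIM22 neighbour lists, up to 4 per other list by size of ratio (with others cited for contrast after their values were seen), and the 3 most alike genes per member. Members and lists were chosen with earlier results of these data known. Peaks were not used here, since no annotation of their build was at hand. Some members of the lists are counted but not reported here by name.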

Additional observations from a re-analysis of the deposited data

How the results depend on the processing

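No paired analysis was possible because each group has 1 library, and no replicate could be left out. The direction of TRIM22 in SiHa was the same under every alternative run. So was that of all 3 members in ME-180, but there no alternative could change it. Each member has 1 row in that line, with 0 counts in the library labelled knockdown. The size of the ME-180 log2 ratios depends on the pseudocount, since the library labelled knockdown has 0 counts: at 0.1 CPM they were -7.88 for OAS1, -7.27 for OAS2 and -7.44 for TRIM22, and at 5 CPM -2.51, -2.03 and -2.15. With TMM scaling they were -4.75, -4.16 and -4.32, and with DESeq2 size factors -4.75, -4.16 and -4.32. With the scaling implied by the deposited log fold change they were -4.77, -4.18 and -4.34. The gene order was the same each time, as the control counts alone set it. That last scaling lies -0.32 (log2, ME-180) and 0.04 (SiHa) from the table totals. OAS1 in SiHa was -0.08, and 0.05 with its rows summed, both within counting error. TRIM22 in SiHa was 1.02 at a pseudocount of 5 CPM, still past 2-fold, and OAS2 was 0.40 with its lower row, against -0.43 with its higher one. For that row the ratio of TRIM22 to OAS2 was 2.62 times as large with overexpression. At 5 CPM, 2190 ME-180 genes and 20 SiHa genes passed the 2-fold rule, against 3314 and 92 at 1 CPM, and at 0.1 CPM 340 SiHa genes did. Of the SiHa genes called, 33.2% were higher at 0.1 CPM, 70.0% at 5 CPM and 43.5% at 1 CPM. TMM scaling made 47.6% of the called ME-180 genes higher, against 57.8%. At 0.1 CPM, 3 interferon-stimulated genes passed in SiHa, against 1. The genes lower in ME-180 and higher in SiHa numbered 41 at 0.1 CPM, 8 at 5 CPM and 14 at 1 CPM, alternatives added after seeing the data. The other 45 values stayed within 1.5 times the count or within the counting interval. Counts of 38 to 79 per OAS row limit SiHa, where a difference inside the intervals was not detectable at this depth.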

Other observations

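Genes of class II antigen presentation, which interferon gamma induces through the coactivator CIITA, were also read in both lines. In SiHa CD74, the invariant chain, had 162 counts with overexpression and 44 with the vector (ratio 3.82, 2.72 to 5.46), close to the TRIM22 values of 156 with overexpression and 44 with the vector, and CIITA had 141 with overexpression and 66 with the vector (ratio 2.22, 1.64 to 3.02). These were 2 of 8 class II genes at or over 1 CPM, and none was lower, beside 0.572% of all SiHa genes higher and 0.743% lower. HLA-DRB1 had 826 counts with overexpression and 585 with the vector. In ME-180 CIITA had 0 counts in the library labelled knockdown and 21 in the control, while HLA-DQB1 had 255 in the library labelled knockdown and 0 in the control and HLA-DPA1 had 103 in the library labelled knockdown and 0 in the control, genes with close paralogs. Of 7 class II genes there, 2 were higher and 2 lower, beside 28.2% and 20.6% of all genes, so the higher share is near that of all genes.

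Of 13 genes of the p53 pathway list in ME-180, 4 were at least 2-fold higher and 4 lower in the library labelled knockdown, beside 28.2% and 20.6% of all genes. One of the lower genes is TP63 itself. BBC3, a pro-apoptotic target of p53, had 291 counts in the library labelled knockdown and 34 in the control, and DDB2, a DNA damage sensor, 1436 in the library labelled knockdown and 4478 in the control. In SiHa 1 of 14 passed the rule, TP63 itself, and CDKN1A, the cell cycle inhibitor p21, had 1233 counts with overexpression and 831 with the vector (ratio 1.54, 1.41 to 1.68).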
